A study of Homo sapiens with 12 samples.

Results

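The enzymes that make cholesterol and fatty acids, with the regulators that control them, were examined in HK-2 cells exposed to a low dose of Kbr. The gene set held 35 genes of the known pathways: 21 of the sterol arm, 8 of the fatty acid arm, and 6 regulators and sterol carriers. Each gene was read from 1 probe set annotated to that gene alone, and where several existed the one with the highest mean over the 12 arrays was taken. Of the 35 genes, 32 had such a probe set and 31 were tested, among 19775 named genes and 10665 tested genes in all. CYP51A1 and FADS1 were represented only by probe sets annotated to several genes, and FDFT1 had no probe set in the annotation used, so these 3 were not analysed here. FADS2, a fatty acid desaturase, lay between 3.19 and 3.24 (log2 units) on all arrays and below the floor of 4 for testing.

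HK-2 is an immortalized human renal proximal tubular epithelial line, and it stands here as 1 line in culture. The medium was DMEM and Ham's F12 with EGF, hydrocortisone, insulin, transferrin and selenite, and cells were treated as they neared confluence. The 4 groups were vehicle control at 24 h, low-dose Kbr at 24 h, vehicle control at 48 h and low-dose Kbr at 48 h, with 3 samples each, labelled biological replicates. Neither the full name of the compound nor its concentration is stated in the labels. RNA was hybridised to Affymetrix arrays, and the values are log2 intensities, so a difference of 1 is a 2-fold change. Their number limits the precision, and levels are compared between arrays for 1 probe set, never between genes.

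Cholesterol and fatty acids are both built from cytosolic acetyl-CoA. The sterol arm condenses it to mevalonate, then to isoprenoid diphosphates, squalene, lanosterol and, after a series of ring modifications, cholesterol, while the fatty acid arm carboxylates it and extends, desaturates and elongates the chain. Both are controlled by the SREBP transcription factors encoded by SREBF1 and SREBF2, of which SREBP2 acts more on sterol genes and SREBP1 more on fatty acid genes. SCAP escorts the SREBP precursors from the endoplasmic reticulum to the Golgi, where they are cleaved to the active form, and when sterols are plentiful INSIG1 and INSIG2 hold SCAP back. INSIG1 is itself an SREBP target. The proximal tubule of the kidney relies on fatty acids mainly as fuel.

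Array medians lay between 2.91 and 2.99, the share of probe sets above the floor was 40.0% to 40.4%, and arrays of 1 group correlated at 0.982 to 0.993 over the tested genes. Of 6 renal epithelial markers 5 were above the floor, but of 8 proximal tubule markers only SLC3A1 was, with LRP2, CUBN, SLC34A1, GGT1, ANPEP, MME and AQP1 below it in these cells. Endothelial and leukocyte markers (0 of 4 and 0 of 3) were below the floor. Of 5 fibroblast markers, COL1A1, DCN and LUM were above it and COL1A2 and PDGFRB below; the log2 of their summed level was 12.47 to 12.98 in controls and 11.83 to 12.31 with Kbr at 24 h, and 12.38 to 12.46 in controls and 10.55 to 11.07 with Kbr at 48 h. The log2 summed level of the proximal tubule markers was 8.25 to 9.01 in controls and 7.43 to 7.78 with Kbr at 24 h, and 9.02 to 9.92 and 7.72 to 7.99 at 48 h. As only SLC3A1 was above the floor, this sum reflects that 1 gene, which changed by −1.34 at 24 h and −1.91 at 48 h. For the renal epithelial markers the log2 summed level was 14.46 to 14.71 in controls and 14.31 to 14.56 with Kbr at 24 h. At 48 h it was 14.33 to 14.59 and 14.16 to 14.57. Single members differed: CDH1 changed by −1.75 at 24 h and −1.49 at 48 h, KRT8 by −0.53 and −0.66, and EPCAM by −0.17 and −0.41. PAX8 changed by 0.53 and 0.40, and KRT18 by −0.16 and 0.36. All samples are labelled HK-2 cells, so these lists are read as gene levels in 1 line, not as amounts of other cell types. In bulk RNA a change in some cells and a change in all of them cannot be told apart. The part of these shifts in the results below was not tested. The ACTB 3′ minus 5′ difference, a sign of RNA quality, spanned 0.67 to 1.07 with overlapping ranges in all 4 groups.

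SREBPs are known to act at sterol regulatory elements, often beside a CCAAT box bound by NF-Y, so promoters were searched for a core of the element, TCACNCCAC (N is any base), and for CCAAT, each on both strands (ATTGG is CCAAT read on the other strand). The sequences are from RefSeq on GRCh38.p14, and 31 of the 35 genes were matched. SQLE, FDFT1, ACAT2 and FASN were not among them. In the 250 bases before the start, 21 of 31 genes (67.7%) held CCAAT, against 37.0% of 27305 genes. They were 14 of 18 in the sterol arm, 4 of 7 in the fatty acid arm and 3 of 6 among the regulators and sterol carriers. The core was found in 1 of 31, SREBF2, against 1.09% of all genes. Such a match is a run of letters and not a measured site, and its absence says only that these letters are not in that window. The stretches below are shown because SREBF2 was the gene with the core and ACSS2 and TM7SF2 had the largest falls of each arm. STARD4, a sterol carrier, was the only gene among the regulators and sterol carriers that rose against control at 48 h. The choice was made after the values were seen. Each is written 5′ to 3′ on the strand of the gene, with the motif in capitals. They lie at chr22:41832952-41833023 (plus strand, SREBF2), chr20:34874846-34874890 (plus, ACSS2), chr11:65111778-65111822 (plus, TM7SF2) and chr5:111512641-111512716 (minus, STARD4).
SREBF2: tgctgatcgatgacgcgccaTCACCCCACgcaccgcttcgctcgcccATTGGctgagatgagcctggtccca
ACSS2: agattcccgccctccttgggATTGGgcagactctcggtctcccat
TM7SF2: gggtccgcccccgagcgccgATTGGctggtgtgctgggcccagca
STARD4: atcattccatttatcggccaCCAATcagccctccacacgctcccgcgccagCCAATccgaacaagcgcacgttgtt
The core of SREBF2 began 133 bases before its start and the CCAAT, on the other strand, 106 bases before, with no overlap of the motifs. In ACSS2 and TM7SF2 the CCAAT lay on the other strand, 123 and 74 bases before the start, and STARD4 carried it on its own strand 161 and 130 bases before. ACSS2 has 2 starts in the RefSeq table, of which this is 1.

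At 24 h, 4 genes fell and 0 rose among the 31 tested: ACSS2, ACLY and ACACA of the fatty acid arm, and TM7SF2 of the sterol arm. A gene is said to have risen or fallen where its limma adjusted p (Benjamini-Hochberg over all 10665 genes) was under 0.05. Over all genes 3.25% fell and 2.48% rose at 24 h, beside 4 of 31 (12.9%) here. Without single arrays the count was 1 without control replicate 1, Kbr replicate 1 or Kbr replicate 2 of 24 h, 2 without control replicate 2 or Kbr replicate 3 of 24 h, and 3 to 5 otherwise. At an unadjusted p under 0.05, 15 of 31 were lower and 0 higher in limma. Shares of all genes at that threshold, and in the fits without single arrays, are not given here. These counts were therefore not set against them. With same-numbered replicates as a block, 16 of 31 (51.6%) fell and 0 rose, against 14.0% and 10.4% of all genes. All 3 Kbr arrays lay below all 3 controls for 18 of 31 (58.1%), against 15.9% of all genes. The log2 change was negative in 28 of 31, against 52.6% of all genes. At 48 h 17 of 31 (54.8%) fell and 2 rose (6.45%), against 20.8% and 22.0% of all genes. With the block 20 fell (64.5%) and 2 rose, against 28.8% and 28.7%. All 3 Kbr arrays lay below all 3 controls for 17 of 31 (54.8%), against 24.9% of all genes. The direction was negative in 25 of 31, against 50.3% of all genes. All 31 were above the floor on every array, the lowest value being 5.48 for MVD, so none passed the filter only through a high group.

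**Figure D1:**
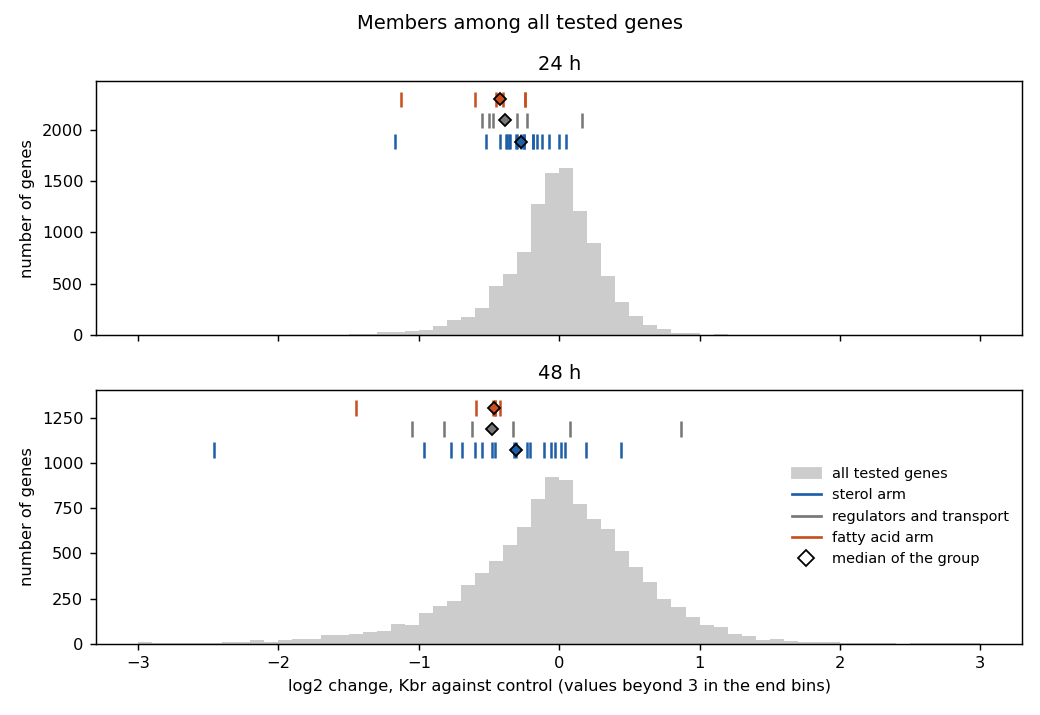
Histogram of the log2 change (Kbr minus control) of every tested gene, with the 31 genes marked above it by arm, at 24 h and 48 h. Short lines are single genes and diamonds medians; those of the sterol arm (−0.27 and −0.31) and the fatty acid arm (−0.43 and −0.47) lie below the all-gene medians of −0.02 and 0.

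In the fatty acid arm all 6 tested members had lower mean levels with Kbr at both times. ACLY makes acetyl-CoA from citrate, ACSS2 makes it from acetate, ACACA carboxylates it to malonyl-CoA, FASN builds the chain, SCD puts in the first double bond and ELOVL6 lengthens it. At 24 h 3 of 6 fell (50%), against 3.25% of all genes. At 48 h 5 of 6 fell (83.3%) and 0 rose, against 20.8% and 22.0% of all genes. The median change of the 6 tested members was −0.43 at 24 h and −0.47 at 48 h, with single changes at 48 h from −1.45 to −0.42. The same medians over all genes were −0.02 and 0.

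ACSS2 had the largest fall of the arm. Its log2 level was 10.75, 10.59 and 10.35 in 24 h controls and 9.41, 9.41 and 9.47 with Kbr. At 48 h it was 11.32, 10.87 and 11.23 in controls and 9.76, 9.73 and 9.59 with Kbr. All 6 Kbr arrays lay below all 6 controls. The change was −1.13 at 24 h (SE 0.13, 95% confidence interval −1.43 to −0.84, limma adjusted p = 0.00246), 2.20-fold lower, and −1.45 at 48 h (SE 0.13, interval −1.74 to −1.16, limma adjusted p = 5.34e-05), 2.73-fold lower. Counted from the lowest of 10665 genes it held rank 94 at 24 h and rank 289 at 48 h. At both times the call held without any single array.

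ACLY stood at 12.84, 12.76 and 12.91 in 24 h controls and at 12.36, 12.35 and 12.45 with Kbr. Its levels at 48 h were 12.80, 12.72 and 12.86 in controls and 12.25, 12.38 and 12.36 with Kbr. The groups did not overlap at either time. The changes, −0.45 (SE 0.08, limma adjusted p = 0.017) and −0.46 (SE 0.08, limma adjusted p = 0.00147), were close in size. Without control replicate 1, Kbr replicate 1 or Kbr replicate 2 of 24 h the adjusted p at 24 h was 0.071, 0.0527 and 0.0672. The 24 h limma adjusted p with the block was 0.00283.

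ACACA measured 9.50, 9.59 and 9.44 in 24 h controls and 9.03, 9.13 and 9.17 with Kbr. In 48 h controls it measured 9.60, 9.55 and 9.57, and with Kbr 9.00, 9.12 and 9.21. The groups did not overlap at either time. It fell by 0.40 at 24 h (limma adjusted p = 0.0262) and by 0.46 at 48 h (limma adjusted p = 0.00174). Leaving out 1 of 5 of the 24 h arrays, all but control replicate 3, lifted the 24 h p to between 0.0648 and 0.0977. The 24 h limma adjusted p with the block was 0.00683. A dimmer probe set of ACACA went the other way at 48 h, from a mean of 5.05 in controls to 5.60 with Kbr, and with the mean of both probe sets the change was −0.25 at 24 h (limma adjusted p = 0.0882) and 0.04 at 48 h (0.706).

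FASN ran at 10.40, 9.78 and 10.39 in 24 h controls against 9.77, 9.36 and 9.65 with Kbr. At 48 h it ran at 10.22, 9.53 and 10.12 against 9.64, 9.03 and 9.42. Replicate 2 was the lowest in all 4 groups, and the treated and control arrays overlapped at 48 h but not at 24 h. The change was −0.60 at 24 h (SE 0.23, limma adjusted p = 0.149) and −0.59 at 48 h (SE 0.23, limma adjusted p = 0.0601). With the replicate block, which compares same-numbered samples, the adjusted p was 0.00225 and 0.00031, and FASN fell at both times.

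SCD changed by −0.24 at 24 h (limma adjusted p = 0.127, or 0.0229 with the replicate block) and fell by 0.47 at 48 h (limma adjusted p = 0.0016). Its 48 h levels were 14.68, 14.75 and 14.67 in controls and 14.24, 14.28 and 14.15 with Kbr, without overlap. ELOVL6 was 9.99, 9.99 and 10.09 in 48 h controls and 9.32, 9.64 and 9.85 with Kbr. All 3 of its Kbr arrays lay below the controls, and it fell by 0.42 (SE 0.14, limma adjusted p = 0.0353). Leaving out 1 of 5 of the 48 h arrays, all but Kbr replicate 3, moved that p to between 0.0656 and 0.126, and it was 0.0675 with no filter. The 48 h limma adjusted p with the block was 0.0315. At 24 h the change of ELOVL6 was −0.24 (limma adjusted p = 0.335).

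**Figure D2:**
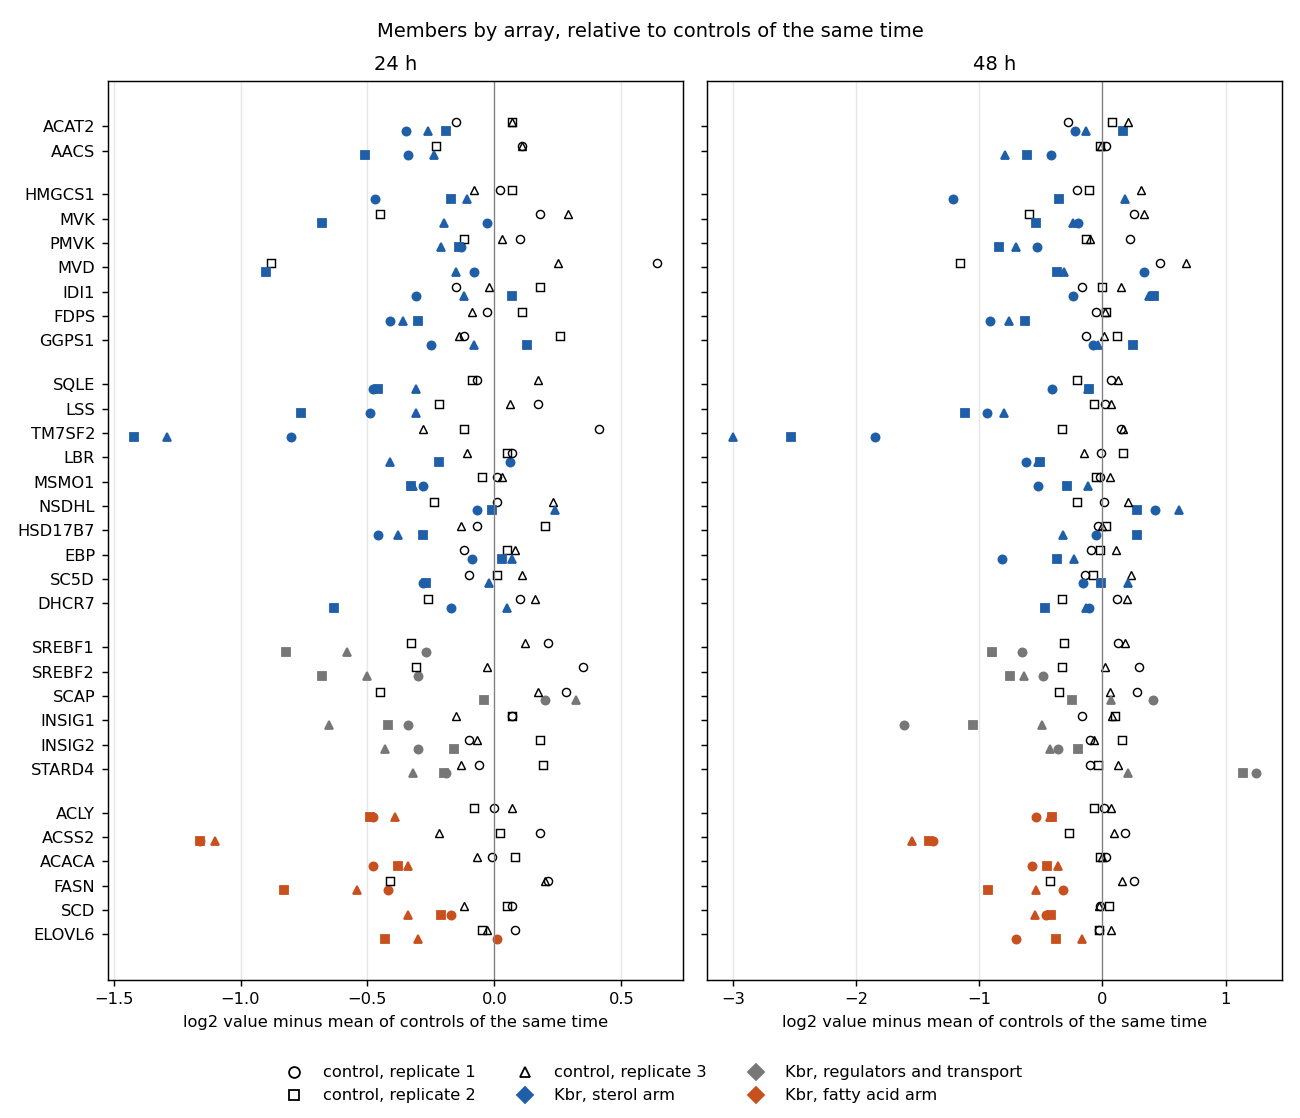
Log2 value of each tested gene on each of the 12 arrays, as the difference from the mean of the same-time controls (horizontal axis), with 1 gene per row; open symbols are controls, filled symbols Kbr, and shapes give the replicate. The Kbr arrays of ACSS2 and TM7SF2 lie well to the left at both times and those of INSIG1 spread widely at 48 h, while STARD4 lies to the right at 48 h on replicates 1 and 2.

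In the sterol arm 1 of 19 tested members fell at 24 h (5.26%, near the 3.25% of all genes). At 48 h 8 fell (42.1%) and 1 rose (5.26%), against 20.8% and 22.0% of all genes. The median change was −0.27 at 24 h and −0.31 at 48 h, with single changes at 48 h from −2.46 to 0.44. With the replicate block 8 fell at 24 h (42.1%, against 14.0% of all genes). AACS, FDPS, SQLE, LSS, MSMO1, HSD17B7 and DHCR7 joined TM7SF2 there. The 48 h median ranged from −0.47 to −0.15 when single arrays were left out, the extremes being without control replicate 2 and control replicate 3 of 48 h.

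Of the genes that supply acetoacetyl-CoA, ACAT2, a cytosolic thiolase, changed by −0.27 and −0.06 (limma adjusted p = 0.284 and 0.751). AACS activates acetoacetate, a ketone body, for lipid synthesis. It stood at 9.84, 9.79 and 9.80 in 48 h controls and at 9.39, 9.20 and 9.02 with Kbr, without overlap. It fell by 0.60 at 48 h (limma adjusted p = 0.0034) and changed by −0.36 at 24 h (limma adjusted p = 0.114, or 0.0395 with the block).

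The mevalonate and isoprenoid steps differed from gene to gene. FDPS makes farnesyl diphosphate, the last precursor shared by sterols and other isoprenoids, and PMVK phosphorylates phosphomevalonate. FDPS measured 13.04, 13.12 and 13.11 in 48 h controls and 12.18, 12.46 and 12.33 with Kbr, without overlap. It fell by 0.77 (SE 0.10, limma adjusted p = 2e-04), 1.71-fold lower, after a change of −0.35 at 24 h (limma adjusted p = 0.0537, or 0.00832 with the block). PMVK measured 8.66, 8.31 and 8.34 in 48 h controls and 7.91, 7.60 and 7.74 with Kbr. It fell by 0.69 at 48 h (SE 0.12, limma adjusted p = 0.00107) and changed by −0.16 at 24 h (limma adjusted p = 0.438).

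HMGCS1, the cytosolic HMG-CoA synthase, was 11.63, 11.73 and 12.15 in 48 h controls and 10.63, 11.49 and 12.02 with Kbr. The groups overlapped, with Kbr replicate 3 close to its control. The change of −0.46 had an SE of 0.28 (limma adjusted p = 0.212), and without Kbr replicate 3 it was −0.78 (limma adjusted p = 0.0263). MVK, mevalonate kinase, changed by −0.32 at 48 h (limma adjusted p = 0.369, or 0.0401 with the block) and by −0.30 at 24 h (limma adjusted p = 0.546). MVD, the mevalonate diphosphate decarboxylase, had the widest error, −0.38 and −0.11 with an SE of 0.50 (limma adjusted p = 0.703 and 0.886), and was low on replicate 2 in every group. IDI1, the isopentenyl diphosphate isomerase, changed by −0.12 and 0.19, and GGPS1, which makes geranylgeranyl diphosphate for protein prenylation, by −0.07 and 0.04, with limma adjusted p from 0.424 to 0.851.

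From squalene to cholesterol, the largest fall was in TM7SF2, a sterol reductase that acts on the product of CYP51A1. Its level was 8.73, 8.20 and 8.04 in 24 h controls and 7.52, 6.90 and 7.03 with Kbr. At 48 h it was 9.00, 8.52 and 9.02 in controls and 7.00, 6.32 and 5.85 with Kbr. All 6 Kbr arrays lay below all 6 controls. The change was −1.17 at 24 h (SE 0.29, interval −1.82 to −0.53, limma adjusted p = 0.0429), 2.25-fold lower, and −2.46 at 48 h (SE 0.29, interval −3.10 to −1.81, limma adjusted p = 0.000169), 5.49-fold lower. At 48 h it held rank 34 from the lowest of 10665 genes. The 48 h call held without any single array, but the 24 h fall was lost without any 1 of 9 arrays, with adjusted p from 0.0505 to 0.165: control replicates 1 and 2 and all 3 Kbr replicates of 24 h, and all 3 controls and Kbr replicate 2 of 48 h. With no filter on low values the 24 h p was 0.103, and with the block the 24 h limma adjusted p was 0.00377. TM7SF2 was read from 1 probe set.

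LBR, the lamin B receptor of the inner nuclear membrane, has the same reductase activity as TM7SF2. It measured 12.01, 12.19 and 11.87 in 48 h controls and 11.40, 11.51 and 11.50 with Kbr, without overlap. It fell by 0.55 (SE 0.13, limma adjusted p = 0.00558), and changed by −0.19 at 24 h (limma adjusted p = 0.402). LSS, lanosterol synthase, which closes the sterol rings, measured 10.55, 10.46 and 10.60 in 48 h controls and 9.59, 9.41 and 9.73 with Kbr. It fell by 0.96 (SE 0.14, limma adjusted p = 0.000472), 1.94-fold lower, after −0.52 at 24 h (limma adjusted p = 0.0537, or 0.00376 with the block). SQLE, the squalene epoxidase that precedes it, changed by −0.42 at 24 h (limma adjusted p = 0.071, or 0.016 with the block) and by −0.21 at 48 h (limma adjusted p = 0.198).

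MSMO1, NSDHL and HSD17B7 take methyl groups off the sterol ring in successive reactions. MSMO1 was 13.66, 13.63 and 13.74 in 48 h controls and 13.16, 13.39 and 13.56 with Kbr, and fell by 0.31 (limma adjusted p = 0.03). That call was lost without control replicate 1 or 3 or Kbr replicate 1 or 2 of 48 h, with p from 0.0611 to 0.102, and reached 0.107 with only the groups compared in the fit. The 48 h limma adjusted p with the block was 0.0142. At 24 h the change was also −0.31 (limma adjusted p = 0.0931, or 0.0327 with the block).

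NSDHL was the sterol enzyme that rose. It was 9.26, 9.04 and 9.46 in 48 h controls and 9.68, 9.53 and 9.87 with Kbr, and every Kbr array lay above every control. The rise was 0.44 (SE 0.15, limma adjusted p = 0.0395), 1.36-fold, and at 24 h the change was 0.05 (limma adjusted p = 0.885). The call at 48 h was lost without control replicate 1 or 2 or Kbr replicate 1 or 3 of 48 h, or control replicate 1 or Kbr replicate 2 of 24 h, with p from 0.0518 to 0.137, and with array weights p was 0.0856. The 48 h limma adjusted p of NSDHL with the block was 0.00088. HSD17B7 changed by −0.37 at 24 h (limma adjusted p = 0.145, or 0.0307 with the block) and by −0.03 at 48 h (limma adjusted p = 0.908).

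EBP, a sterol isomerase, changed by 0.00 at 24 h (limma adjusted p = 0.996) and fell by 0.48 at 48 h (SE 0.14, limma adjusted p = 0.0194). Its 48 h levels were 11.91, 11.98 and 12.11 in controls and 11.18, 11.63 and 11.77 with Kbr, without overlap. Without control replicate 3 or Kbr replicate 1 of 48 h its p was 0.0623 and 0.0517, and with only the 48 h groups fitted 0.0717. Its 48 h limma adjusted p with the block was 0.00213. SC5D, a sterol desaturase, changed by −0.19 and 0.01 (limma adjusted p = 0.414 and 0.963). DHCR7, the reductase of the last step to cholesterol, changed by −0.25 and −0.23 (limma adjusted p = 0.497 and 0.38, or 0.0426 and 0.0261 with the block).

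**Figure D3:**
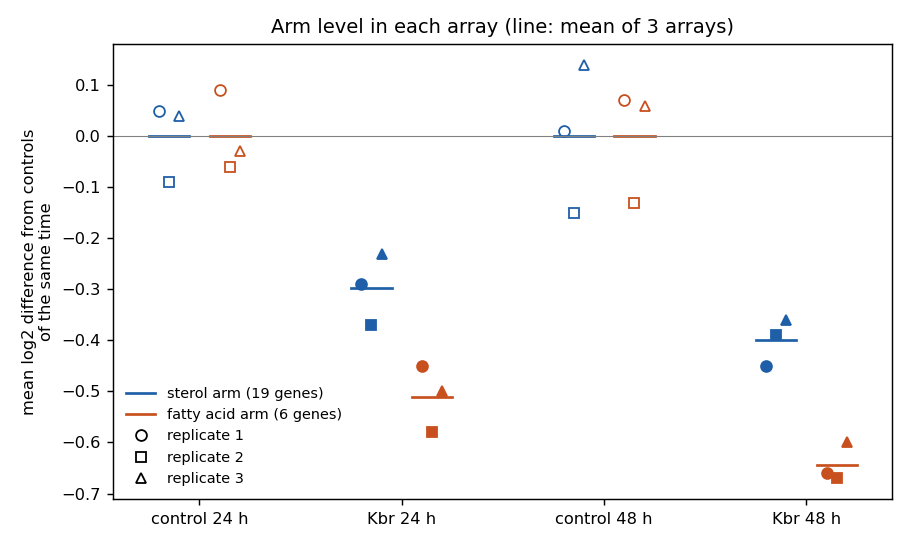
Mean log2 difference from the same-time controls over the 19 sterol genes and the 6 fatty acid genes on each array (vertical axis), with shapes for replicates, open symbols for controls and lines for the mean of 3 arrays. The Kbr arrays lie at −0.45 to −0.58 for the fatty acid arm and −0.23 to −0.37 for the sterol arm at 24 h, and at −0.60 to −0.67 and −0.36 to −0.45 at 48 h.

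The arms were set side by side on each array as the mean difference of their members from the controls of the same time. For the sterol arm this was −0.29, −0.37 and −0.23 with Kbr at 24 h and −0.45, −0.39 and −0.36 at 48 h, while single controls lay between −0.15 and 0.14. For the fatty acid arm it was −0.45, −0.58 and −0.50 at 24 h and −0.66, −0.67 and −0.60 at 48 h, with controls between −0.13 and 0.09. On each of the 6 Kbr arrays the fatty acid arm was the lower. ACSS2 is 1 of only 6 genes in that mean, and TM7SF2 1 of 19 in the other. ACSS2 and ACLY make acetyl-CoA, from which both arms start, but were counted only in the fatty acid arm. At 24 h the other fatty acid members, ACACA, FASN, SCD and ELOVL6, changed by −0.40, −0.60, −0.24 and −0.24, beside the sterol median of −0.27. Their 48 h changes were −0.46, −0.59, −0.47 and −0.42, beside −0.31. The difference between the arms was not tested, since the genes of an arm are not replicates.

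Among the regulators, both SREBP genes were lower with Kbr. SREBF1 measured 8.66, 8.22 and 8.71 in 48 h controls and 7.88, 7.63 and 7.63 with Kbr, without overlap. It fell by 0.82 (SE 0.19, limma adjusted p = 0.00553), 1.76-fold lower, after −0.55 at 24 h (limma adjusted p = 0.105, or 0.00658 with the block). SREBF2 measured 9.22, 8.59 and 8.94 in 48 h controls and 8.44, 8.17 and 8.28 with Kbr, and fell by 0.62 (SE 0.19, limma adjusted p = 0.0236), after −0.50 at 24 h (limma adjusted p = 0.149, or 0.00509 with the block). The SREBF2 call at 48 h was lost without control replicate 1 or 3 or Kbr replicate 2 or 3 of 48 h, with p from 0.0511 to 0.0937, and p was 0.0596 with no filter. Its 48 h limma adjusted p with the block was 0.000327. SCAP changed by 0.16 and 0.08 (limma adjusted p = 0.73 and 0.81), with a 48 h interval from −0.43 to 0.59.

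INSIG1 was 12.44, 12.71 and 12.69 in 48 h controls and 11.00, 11.56 and 12.12 with Kbr. The 3 Kbr arrays spread over more than 1 log2 unit but all lay below the controls. It fell by 1.05 (SE 0.23, interval −1.55 to −0.55, limma adjusted p = 0.00392), 2.08-fold lower, and all 3 of its probe sets were lower at both times. At 24 h the change was −0.47 (limma adjusted p = 0.242). INSIG2, which is not induced by SREBPs as INSIG1 is, fell by 0.33 at 48 h (limma adjusted p = 0.0444) and changed by −0.30 at 24 h (limma adjusted p = 0.152, or 0.00992 with the block). The INSIG2 call at 48 h was lost without any control replicate or Kbr replicate 1 or 3 of 48 h, or control replicate 1 or 3 or Kbr replicate 1 of 24 h, with p from 0.0522 to 0.151, and reached 0.0879 with array weights. Its 48 h limma adjusted p with the block was 0.00178.

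STARD4, a soluble carrier that moves cholesterol between membranes, rose at 48 h. It was 10.11, 10.36 and 10.04 in 24 h controls and 9.98, 9.97 and 9.85 with Kbr, a change of −0.23 (limma adjusted p = 0.576). At 48 h it was 10.40, 10.46 and 10.63 in controls and 11.75, 11.64 and 10.71 with Kbr. Every 48 h Kbr array lay above every control, but replicate 3 by only 0.08 over its own control. The rise was 0.87 (SE 0.22, interval 0.37 to 1.37, limma adjusted p = 0.0101), 1.83-fold, and without Kbr replicate 3 it was 1.20 (limma adjusted p = 0.000115). With only the 48 h groups in the fit, p was 0.0506.

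**Figure D4:**
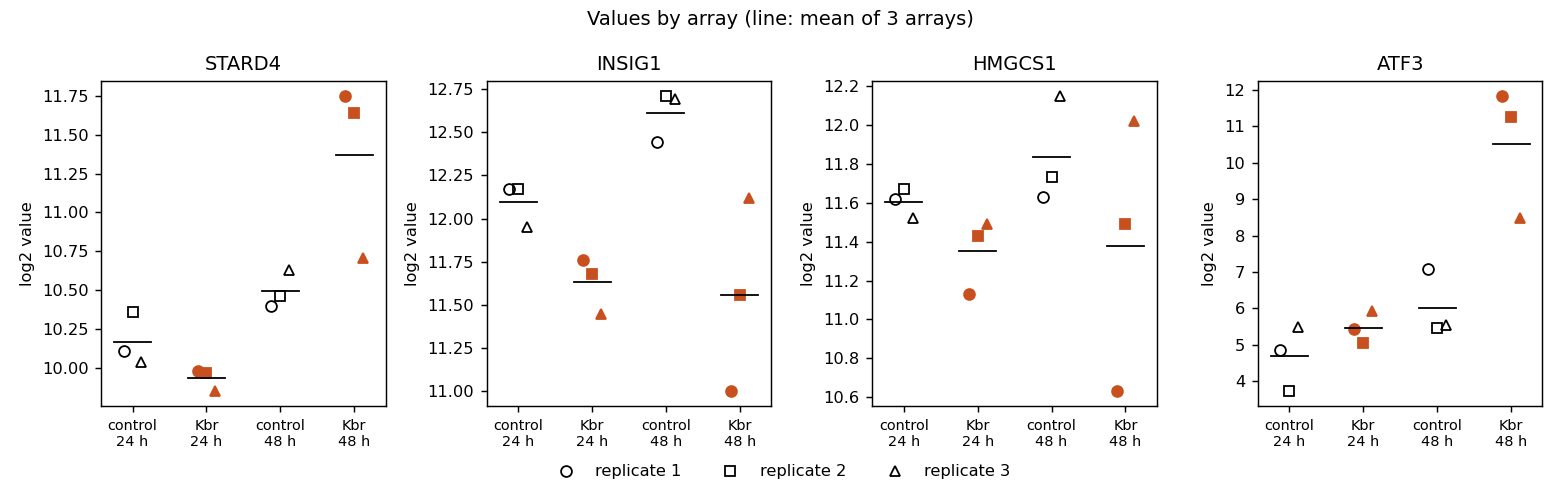
Log2 level (vertical axes) of STARD4, INSIG1, HMGCS1 and ATF3 on each array by group, with shapes for replicates and lines for the mean of 3 arrays. At 48 h STARD4 is 11.75 and 11.64 on Kbr replicates 1 and 2 but 10.71 on replicate 3, and INSIG1 is 11.00, 11.56 and 12.12.

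Kbr replicate 3 at 48 h stood apart from replicates 1 and 2 in other genes as well, which were chosen after their values were seen. ATF3 was 11.84, 11.25 and 8.49 on the 3 Kbr arrays, against 7.08, 5.45 and 5.53 in controls. HSPA5, the endoplasmic reticulum chaperone, was 15.36, 15.03 and 13.78, against 13.11, 12.78 and 12.98. Without that array, 16 of the 31 genes fell at 48 h and 1 rose: 9 of the sterol arm with HMGCS1 added and NSDHL no longer called (limma adjusted p = 0.12), 5 of the fatty acid arm, and SREBF1 and INSIG1 of the regulators. The shares of all genes that fell and rose in that fit are not given here. SREBF2 and INSIG2 were then no longer called (limma adjusted p = 0.0511 and 0.117). Its part in the results was not tested.

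Whether the Kbr effect differed between 48 h and 24 h was tested directly, as the interaction of treatment and time. In limma 0 of 31 genes passed (0.141% of all genes did). At an unadjusted p under 0.05 the difference was negative in 4 and positive in 1, and the share of all genes at that threshold is not given here. With the block 3 of 31 passed (9.68%), near the 7.36% of all genes. In all 3 the Kbr effect was more negative at 48 h than at 24 h. They were TM7SF2, with a difference of −1.28 (limma adjusted p = 0.184, or 0.0278 with the block), PMVK with −0.53 (0.18, or 0.0333) and FDPS with −0.42 (0.183, or 0.0384). STARD4 had the largest positive difference, 1.10 (SE 0.32, limma adjusted p = 0.159). Without Kbr replicate 3 at 48 h its difference was 1.43 (limma adjusted p = 0.00398). ACLY, ACACA and FASN had differences of −0.01, −0.06 and 0.01, with intervals of −0.28 to 0.25, −0.33 to 0.21 and −0.72 to 0.73.

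**Figure D5:**
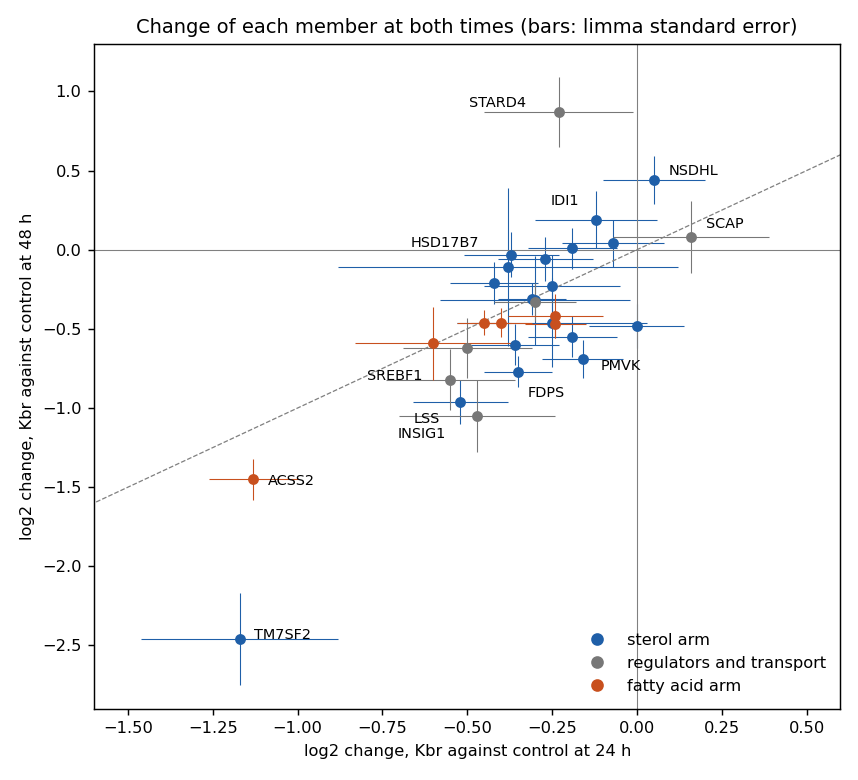
Log2 change (Kbr minus control) of each tested gene at 24 h on the horizontal axis and at 48 h on the vertical axis, colored by arm, with limma standard errors as bars and a dashed line for equal change. TM7SF2 (−1.17 and −2.46) and ACSS2 (−1.13 and −1.45) lie farthest out, and STARD4 (−0.23 and 0.87) lies on the other side of the line.

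The 48 h and 24 h arrays were also compared within each treatment. In vehicle cells ACSS2 rose, by 0.57 (limma adjusted p = 0.045), 1 of 31 genes (3.23%), near the 3.29% of all genes. With the block 7 of 31 changed (16.1% rose and 6.45% fell), near the 22.5% of all genes that changed. There ACAT2 and NSDHL fell, and MSMO1, SC5D, INSIG2 and SCD rose with ACSS2 (limma adjusted p with the block from 0.00151 to 0.0285 for these 6 added genes). With Kbr, 5 of 31 changed between 24 h and 48 h (6.45% rose and 9.68% fell), beside 10.6% of all genes. With the block 14 did (22.6% rose and 22.6% fell), beside 30.7%. Of those 5, PMVK fell by 0.46 (limma adjusted p = 0.0337), FDPS by 0.45 (0.0164) and EBP by 0.49 (0.0497), while INSIG2 rose by 0.46 (0.0347) and STARD4 by 1.44 (0.00563). With the block IDI1, SQLE, MSMO1, HSD17B7 and SC5D also rose with time under Kbr, and LSS, TM7SF2, LBR and SREBF1 also fell (limma adjusted p with the block from 0.00185 to 0.0378). These comparisons share arrays with the Kbr effects above. Of the 12 fits without 1 array each, the ACSS2 change in controls was called in 1, and the changes of PMVK, FDPS, EBP, INSIG2 and STARD4 with Kbr in 8, 9, 1, 8 and 12.

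Other genes of sterol uptake, efflux and regulation were taken from a list of 18, of which 11 were tested. At 24 h 0 of 11 passed in limma, with or without the block. At an unadjusted p under 0.05, 2 were lower and 1 higher, and the share of all genes at that threshold is not given here. At 48 h 4 of 11 fell (36.4%) and 2 rose (18.2%), beside 20.8% and 22.0% of all genes, and the median change was −0.25. With the block 7 of 11 fell (63.6%), beside 28.8%, the added genes being TMEM97, MBTPS2 and MYLIP (limma adjusted p = 0.0474, 0.00817 and 0.00598 with the block), named after their values were seen. Of the falls, MBTPS1, a protease that cleaves SREBP precursors, changed by −0.62 (limma adjusted p = 0.000791), NPC2, which carries cholesterol in lysosomes, by −0.48 (0.00453), RNF139, a sterol-sensing ubiquitin ligase, by −0.45 (0.00516) and ABCA1, a cholesterol exporter, by −0.26 (0.0218). SOAT1, which esterifies cholesterol, rose by 0.52 (0.0178), as did NPC1, the lysosomal partner of NPC2, by 0.51 (0.0189). ABCA1 and NPC1 were added to the 4 of smallest p after their values were seen.

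Of 20 further genes of fatty acid elongation, activation and regulation, 15 were tested. At 24 h 1 rose (6.67%, beside 2.48% of all genes) and 14 were not called. At 48 h 2 fell (13.3%) and 1 rose (6.67%), below the 20.8% and 22.0% of all genes, and 12 were not called. The median change was −0.10 at 24 h and −0.07 at 48 h. With the block 2 fell at 24 h (13.3%, near the 14.0% of all genes), SCD5 and HACD3 (limma adjusted p = 0.0225 and 0.0269). At 48 h 5 fell (33.3%) and 2 rose (13.3%) with the block, against 28.8% and 28.7% of all genes. There TECR, HACD3 and SLC25A1 fell and MID1IP1 rose in addition (limma adjusted p = 0.000923, 0.0157, 0.000639 and 0.00396). The genes added by the block were named after their values were seen. ME1, the malic enzyme that supplies NADPH for fatty acid synthesis, rose at 24 h by 0.72 (limma adjusted p = 0.0037) and at 48 h by 1.24 (limma adjusted p = 2.3e-05). Its 48 h levels were 10.58, 10.75 and 10.82 in controls and 11.91, 12.03 and 11.92 with Kbr, without overlap. At 48 h ACACB, the second acetyl-CoA carboxylase, fell by 1.32 (limma adjusted p = 0.00877) and SCD5, a second stearoyl-CoA desaturase, by 1.28 (limma adjusted p = 0.000944).

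Where a gene had more than 1 probe set, the others were compared. Of the 31 genes 17 had another probe set above the floor, and of 29 such probe sets 24 had the same sign as the one used at 24 h and 25 at 48 h. Some differed in size. For EBP, a probe set at 9.32 in 24 h controls changed by −0.41 at 24 h, and another by −0.07. A dimmer probe set of GGPS1 changed by −0.35 at 24 h and −0.37 at 48 h, beside −0.07 and 0.04 for the one used.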

How the data were processed

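The deposited table holds log2 values for 54675 probe sets on 12 arrays, made by the authors with GCRMA per the submitters' processing notes, with the version not given. GCRMA subtracts background by probe sequence and summarises probes, and compresses low values. Of the probe sets, 41091 had 1 gene symbol in the platform annotation, 1801 several and 11721 none. Genes above log2 4 on at least 3 arrays were tested (10665) with limma 3.58.1 in R 4.3.3 (lmFit and eBayes), all 12 arrays in 1 fit of the 4 group means, two-sided, Benjamini-Hochberg over all tested genes, threshold 0.05. The fit was also run on simulated data with independent noise and few changed genes. That run lacked the shared deviations of same-numbered replicates described below, so it does not test the fit under them. Members and lists were chosen with earlier results of these data known. Every member is named, and up to 4 genes of smallest p per further list. Same-numbered replicates deviated together (18 pairs, correlation 0.279 to 0.701, against −0.454 to −0.0613 for 36 differently numbered pairs), so the replicate number pairs the samples, and a fit with it as a block (the numbers are from the labels) was an alternative. Others were the floor, normalization, probe set rule, variance model, array weights and leaving out each array.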

Additional observations from a re-analysis of the deposited data

Results flagged for a closer look

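STARD4 was singled out because its difference had a negative sign in all 3 same-numbered pairs at 24 h and a positive sign in all 3 at 48 h. It was picked for that pattern, and neither the 24 h change (limma adjusted p = 0.576) nor the difference between the times passed the test. The pair differences (Kbr minus control) were −0.12, −0.39 and −0.19 at 24 h and 1.35, 1.18 and 0.08 at 48 h. The difference between the effects was 1.10 (SE 0.32), with a limma adjusted p for the interaction of 0.159, or 0.0559 with the replicate block. Without Kbr replicate 3 of 48 h it was 1.43 (limma adjusted p = 0.00398), and without any other single array the p lay between 0.152 and 0.303.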

How the results depend on the processing

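Of 29 calls of these genes over all comparisons, 12 held in every alternative, 14 were lost in some fit without 1 array and 16 in some other alternative. The 1 reversal was ACACA at 48 h, 0.04 with the mean of its probe sets, where a dimmer probe set rises. At 24 h, 4 genes were called in the reported fit, 16 with the replicate block, 2 with only the groups compared, 9 with an intensity trend and robust variance, 9 with array weights, and 1 to 5 without single arrays. The count at 48 h (19) ran from 13 to 22 over the other alternatives and from 14 to 20 without single arrays. For the interaction (0) it was 3 with the block, 1 with array weights, and 0 to 1 without single arrays. Only the groups compared could not be run there, since it uses all groups. For control time (1) the count was 7 with the block, 0 with no filter, 2 with a floor of 6, 2 with the mean of probe sets, 0 with every probe set or only the groups compared, 3 with the trend and robust variance, 0 with array weights, and 0 to 1 without single arrays. For Kbr time (5) it was 14 with the block, 2 with no filter, 0 with only the groups compared, 9 with the trend and robust variance, 11 with array weights, and 1 to 6 without single arrays. Other than for the block, the shares of all genes called in these alternatives are not given here. The counts of the 31 genes were therefore not set against them. The sterol median at 48 h ran from −0.47 to −0.15 and its interaction median from −0.25 to 0.11 without single arrays. The replicate block changed no other call of the 31 genes than those given. Causes were not tested. With 3 arrays per group, small changes are not resolved.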
